A study of Mus musculus with 2 samples.

Results

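Vessel wall spots rich in smooth muscle were capture spots of a mouse liver spatial transcriptomics experiment with the highest share of 4 smooth muscle transcripts, Acta2, Tagln, Myh11 and Mgp. They numbered 223 of 4692 deposited spots: 102 of 2149 in the AEG-1ΔMAC section and 121 of 2543 in the AEG-1fl/fl section. Spots with more than 50000 unique molecular identifiers (UMIs, 1 per captured probe molecule), fewer than 100 genes or more than 7000 genes were left out, 9 in the AEG-1ΔMAC section and 3 in the AEG-1fl/fl section. The 5% of spots per section with the highest share of the bile duct transcripts Spp1, Epcam, Krt7 and Krt19 were then dropped, 107 and 127 spots. Among the 2033 and 2413 spots that remained, the score was the summed UMIs of the 4 smooth muscle genes over all UMIs of the spot, and the top 5% of each section were taken. The members were therefore chosen on measured values, and the levels of the 4 score genes are given as a description. The 1931 and 2292 spots that remained are called other spots, and the dropped spots are called bile duct spots.

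The AEG-1ΔMAC section (AEG-1DMAC in the sample labels) came from a mouse in which Lyz2-driven Cre recombinase deletes the floxed AEG-1 gene, Mtdh, in myeloid cells. The AEG-1fl/fl section came from a mouse with the floxed alleles, in which Mtdh is intact. The labels give high-fat, high-sugar (HF/HSD) feeding from 7 weeks of age for 20 weeks and collection at 27 weeks for both samples, whereas the study's text describes the spatial sections as those of littermates on a control diet, so the diet was not settled here and was the same for both by either source. Each genotype was represented by 1 section, both on 1 slide, so no difference between genotypes has a replicate check. A spot covers several cells, here mostly hepatocytes, and fewer cells of a type cannot be told apart from less RNA per cell. Intervals given with ratios and shares are 95% intervals of counting error only, and UMIs of neighbouring spots are not independent samples of a liver. Of the array positions, 1782 held a spot in both sections, and 4 of these held a vessel wall spot in both.

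Blood vessels of the liver are the portal vein and hepatic artery branches of the portal tract, the central vein of each lobule, and the sinusoids between them. The wall of an artery or a larger vein carries a coat of vascular smooth muscle, which contracts by sliding smooth muscle myosin (Myh11) along filaments of alpha smooth muscle actin (Acta2), with transgelin (Tagln) bound to the actin. Around this coat lie elastic fibres, fibrillar collagen and the fibroblasts that make them, and matrix Gla protein (Mgp) inhibits mineral deposition in the wall. Sinusoids have no such coat: they carry stellate cells, which in the quiescent state make little alpha smooth muscle actin. Many contractile genes of smooth muscle are controlled through the CArG box, the sequence bound by serum response factor with its partner myocardin.

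The CArG box was searched for in the 250 bases before each RefSeq transcription start in GRCm38.p6, as CC, then 6 bases that are A or T, then GG. The motif is its own reverse complement, so that a search of 1 strand covers both strands. A near match was allowed 1 base of the core that is not A or T. Of 36 contractile and score genes, 30 had a promoter in the RefSeq table. Among the score genes only Acta2 had one, so Tagln, Myh11 and Mgp were not searched. An exact box was found in 3 of these, or 10.0% (95% interval 2.11 to 26.5%), Myl9, Ldb3 and Filip1l, against 439 of all 27025 genes, or 1.62%. A match at the near level, exact boxes included, was found in 8 of 30 (26.7%, 12.3 to 45.9%), against 2643 of 27025 (9.78%). Of the other wall lists used below, portal fibroblast genes had such a match in 3 of 16 (18.8%, 4.05 to 45.6%). Elastic fibre genes had it in 2 of 13 (15.4%, 1.92 to 45.4%) and collagens and proteoglycans in 2 of 17 (11.8%, 1.46 to 36.4%). These intervals overlapped that of the contractile and score genes. The promoters of Acta2, a score gene, and Myl9, the regulatory light chain of smooth muscle myosin, are shown because they carry the boxes of an actin and a myosin gene with high levels in these spots, on the former of which the spots were chosen. Capitals mark the boxes, and each sequence is read 5′ to 3′ on the gene's own strand. The Acta2 promoter (chr19:34255374-34255623, minus strand) holds near matches that begin 84 and 34 bases before the start, and the Myl9 promoter (chr2:156775214-156775463, plus strand) an exact box that begins 161 bases and a near match that begins 99 bases before it.
Acta2: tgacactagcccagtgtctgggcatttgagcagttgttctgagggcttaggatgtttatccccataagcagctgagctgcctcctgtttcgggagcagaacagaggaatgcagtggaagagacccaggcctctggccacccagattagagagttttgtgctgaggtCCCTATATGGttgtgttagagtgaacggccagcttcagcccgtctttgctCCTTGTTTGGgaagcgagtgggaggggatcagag
Myl9: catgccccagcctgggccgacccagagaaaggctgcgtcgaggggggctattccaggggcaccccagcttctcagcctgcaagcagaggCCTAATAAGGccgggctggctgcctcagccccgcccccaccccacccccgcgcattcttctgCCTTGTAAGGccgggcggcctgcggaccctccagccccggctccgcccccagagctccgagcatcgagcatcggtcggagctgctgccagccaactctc
A match in these windows is a description of the letters and not of binding.

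The score rested on few molecules in most spots. The median vessel wall spot held 3 score UMIs in the AEG-1ΔMAC section and 2 in the AEG-1fl/fl section, which is 128 and 138 counts per 1000000 UMIs of the spot (CPM). The highest AEG-1ΔMAC spot held 70 score UMIs of 9977, or 7016 CPM: 17 of Acta2, 24 of Tagln, 10 of Myh11 and 19 of Mgp. The spot that followed it held 51 of 14128. In the AEG-1fl/fl section the highest spot held 13 score UMIs of 19758, or 658 CPM: 4 of Acta2, 2 of Tagln, 1 of Myh11 and 6 of Mgp. At the threshold, the last AEG-1ΔMAC spot taken had 80.0 CPM (2 UMIs of 24998) and the first spot left out had 79.3. The last AEG-1fl/fl spot taken had 103 CPM (3 UMIs of 29112) and the first left out 102.81 (1 UMI of 9727). At this edge, membership turned on a fraction of 1 molecule.

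Spots with 6 or more score UMIs were 29 of 102 in the AEG-1ΔMAC section (28.4%, 19.9 to 38.2%) and 6 of 121 in the AEG-1fl/fl section (4.96%, 1.84 to 10.5%). Spots with 10 or more were 15 and 2. UMIs of 3 or all 4 score genes were present in 39 AEG-1ΔMAC spots and in 19 AEG-1fl/fl spots, and of a single score gene in 23 and 42. Part of this gap lay in the bile duct drop. Of all kept spots, 55 of 2140 in the AEG-1ΔMAC section and 28 of 2540 in the AEG-1fl/fl section held 6 or more score UMIs, and 26 and 22 of these were bile duct spots. The bile duct spots reached 36 and 46 score UMIs. The vessel wall spots of the AEG-1fl/fl section were thus mostly spots with 2 to 5 score UMIs, 109 of 121, against 67 of 102 in the AEG-1ΔMAC section, and every comparison between the genotypes below is given beside this difference.

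**Figure D1:**
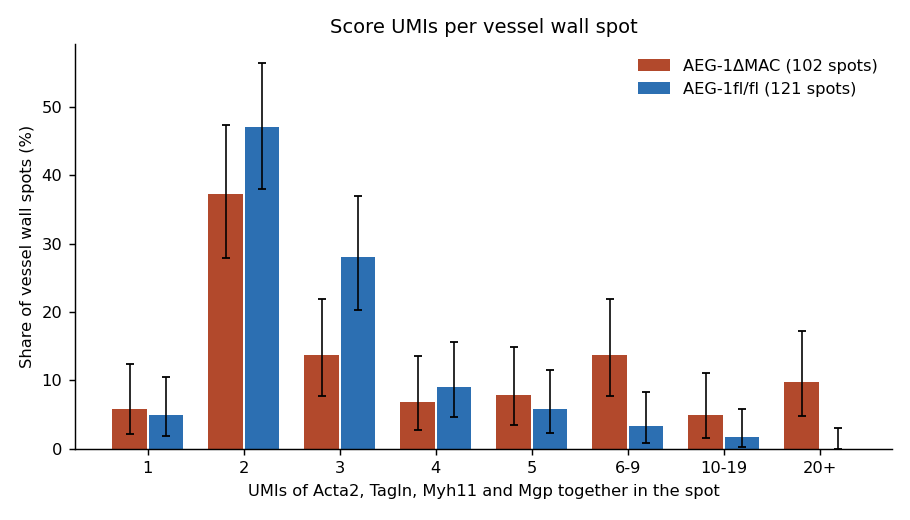
Share of vessel wall spots in percent (vertical axis, with binomial intervals) by the summed UMIs of Acta2, Tagln, Myh11 and Mgp in the spot (horizontal axis), for each section. Most spots of both sections held 1 to 5 score UMIs, and 10 AEG-1ΔMAC spots but no AEG-1fl/fl spot held 20 or more.

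Each score gene is given with its place in GRCm38 (the build of the files' annotation, mm10) and its level, in CPM of UMIs summed over spots. Acta2 (chromosome 19, 34241090 to 34255590, minus strand) had 82.8 CPM in AEG-1ΔMAC vessel wall spots against 1.39 in other spots, and 31.8 against 2.43 in the AEG-1fl/fl section. Tagln (chromosome 9, 45929619 to 45936058, minus strand) had 132.7 against 4.81 CPM and 86.6 against 11.2. Myh11 (chromosome 16, 14194535 to 14291372, minus strand) had 37.9 against 0.756 CPM and 10.6 against 1.21. Mgp (chromosome 6, 136872435 to 136875823, minus strand) had 66.8 against 1.78 CPM and 27.0 against 1.99. Tagln made up 41.4% of the score UMIs in the AEG-1ΔMAC section and 55.5% in the AEG-1fl/fl section, and it was present in 10.0% and 19.9% of other spots. In the AEG-1ΔMAC section the 10 spots with the highest score held 44.0 to 51.6% of the UMIs of each score gene. In the AEG-1fl/fl section the 10 spots with the highest score held 12.8 to 32.8%.

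Smooth muscle markers that the score did not use were checked next. Actg2, gamma smooth muscle actin, had 44 UMIs in AEG-1ΔMAC vessel wall spots (19.6 CPM against 0.317 in other spots) and 9 UMIs in AEG-1fl/fl vessel wall spots (3.98 against 0.265 CPM). Cnn1, calponin, had 24 and 3 UMIs (10.7 against 0.0732 CPM and 1.33 against 0.132 CPM). Lmod1, leiomodin, had 23 and 10 UMIs (10.2 against 0.585 CPM and 4.42 against 0.596 CPM). Myl9 had 74 and 29 UMIs (33.0 against 2.24 CPM and 12.8 against 4.24 CPM). Des, the intermediate filament protein desmin, which stellate cells also make, had 77 and 40 UMIs (34.3 against 7.64 CPM and 17.7 against 8.67 CPM). All 5 were higher in vessel wall spots of both sections, with far fewer molecules in the AEG-1fl/fl section. The name of the spots was borne out only in part in both sections. Those with 1 to 2 score UMIs were 44 of 102 in the AEG-1ΔMAC section and 63 of 121 in the AEG-1fl/fl section. Their summed contractile genes were at log2 ratios to other spots of 0.17 (0.04 to 0.29) and 0.08 (-0.04 to 0.21). In these AEG-1ΔMAC spots Actg2 and Lmod1 had 0 UMIs and Cnn1 had 1. Des was there at a log2 ratio of -0.68 (-2.56 to 0.69), whereas Myl9 was higher, at 1.9 on 7 UMIs. In these AEG-1fl/fl spots Actg2, Lmod1 and Cnn1 had 2, 1 and 0 UMIs. In the AEG-1fl/fl section all 5 markers were also higher in bile duct spots than in vessel wall spots (Myl9 16.7 and Des 25.5 CPM), whereas in the AEG-1ΔMAC section Actg2, Cnn1, Myl9 and Des were lower in bile duct spots (10.8, 3.61, 19.8 and 29.3 CPM) and Lmod1 was at 10.4 CPM. The Cnn1 value of the AEG-1fl/fl section rested on 3 UMIs, a log2 ratio of 3.32 with an interval of 0.70 to 5.55. Of the markers of heart and skeletal muscle, Myh6, Myh7, Acta1, Mb and Nppa were at 0 in vessel wall spots of both sections. Tnnt2, the troponin T of heart muscle, had 59 UMIs in the AEG-1ΔMAC vessel wall spots and 2 in the AEG-1fl/fl vessel wall spots.

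Hepatocyte transcripts filled these spots as they filled the rest of the liver. The 17 measured hepatocyte genes had a median log2 ratio of vessel wall over other spots of -0.04 and 0.02, and none was 2-fold higher or lower in either section. The depth of vessel wall spots was near that of the others. Their median was 22087 UMIs and 4298.5 genes in the AEG-1ΔMAC section (20932 and 4080 in other spots) and 17513 UMIs and 3535 genes in the AEG-1fl/fl section (18463 and 3641). In sum they held 2245660 and 2262319 UMIs, so that 20 CPM corresponded to 44.9 and 45.2 molecules.

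Across all genes, few differed between vessel wall and other spots. Counted were the 4719 genes whose mean over the 4 sums reached 20 CPM (vessel wall and other spots of each section, score genes left out). Of these, 32 (0.678%) were at least 2-fold higher in AEG-1ΔMAC vessel wall spots, 10 (0.212%) in AEG-1fl/fl vessel wall spots and 9 (0.191%) in both. The 9 were Gsn, Dpt, Eln, Col1a1, Prss23, Col1a2, Timp3, H2-Eb1 and Spp1. The mean includes the vessel wall sums, so a gene below the minimum in other spots can pass through vessel wall spots alone. Gsn, Dpt, Eln, Col1a1 and Prss23 passed in this way, so these counts are in part set by the filter. Spp1 (72.1 against 30.2 CPM and 57.9 against 24.3 CPM), which bile duct cells and some macrophages make, was a gene of the drop before the score, so its value is set in part by the rule. Only Acot1, an acyl-CoA thioesterase, was at least 2-fold lower in the AEG-1ΔMAC section (1 gene, 0.0212%; 20.0 against 43.3 CPM), and no gene (0 of 4719, 0%) in the AEG-1fl/fl section. With the minimum lowered to 1 CPM, at which 1 CPM corresponded to 2.25 and 2.26 molecules, 687 of 11291 genes (6.08%) were at least 2-fold higher in the AEG-1ΔMAC section, 353 (3.13%) in the AEG-1fl/fl section and 214 (1.9%) in both, and 179 (1.59%) and 240 (2.13%) were lower. The counts of genes in the lists below are read against these 1 CPM shares.

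The contractile list holds the actins, tropomyosins, filament-binding and regulatory proteins of smooth muscle. Of 32 listed contractile genes other than the score genes, 30 reached 1 CPM. Of these 30, 20 were at least 2-fold higher in vessel wall spots of the AEG-1ΔMAC section, 8 in those of the AEG-1fl/fl section and 8 in both. In the AEG-1fl/fl section Hspb6, Itga5 and Synpo2 were at log2 ratios of -0.30, -0.46 and -0.14. Bile duct spots had the higher level for 12 of the 30 in the AEG-1ΔMAC section and for 26 in the AEG-1fl/fl section. The median log2 ratio was 1.40 in the AEG-1ΔMAC section and 0.44 in the AEG-1fl/fl section (0.50 with genes at 0 set to a floor of 3 UMIs), beside 0.03 and 0.02 over all genes past 1 CPM. Tpm2, the beta tropomyosin, had 150 UMIs in 46 of 102 AEG-1ΔMAC vessel wall spots (66.8 against 8.42 CPM in other spots, log2 ratio 2.99, 2.70 to 3.27) and 23 UMIs in 16 of 121 AEG-1fl/fl spots (10.2 against 7.24 CPM, 0.49, -0.19 to 1.10). The AEG-1fl/fl interval of Tpm2 spanned 0. Flna, which crosslinks actin, and Csrp1, a LIM protein of smooth muscle, had log2 ratios of 1.97 and 1.82 in the AEG-1ΔMAC section and 0.39 and 0.69 in the AEG-1fl/fl section. Mylk, the kinase that starts contraction, was at 0.71 and 0.14, and Cald1, caldesmon, at 0.24 and 0.04, below 2-fold in both. Hspb7 and Rasl12 had 17 and 10 UMIs in AEG-1ΔMAC vessel wall spots and were listed at 0 in AEG-1fl/fl vessel wall spots.

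Regulators and signals were less concentrated. Of 15 measured smooth muscle regulators, 6 and 3 were at least 2-fold higher, among them Heyl, a Notch target of mural cells (log2 ratio 2.0 and 1.23), and Notch3, its receptor, which had 17 UMIs in the AEG-1ΔMAC and 4 in the AEG-1fl/fl vessel wall spots (2.75 and 0.26). Of 21 measured genes of vasoactive signalling, 5 and 2 were at least 2-fold higher, with Edn1, the vasoconstrictor endothelin 1, at 2.55 and 1.40 on 18 and 7 UMIs. The pericyte and mural list had 3 and 0 of 8 genes past 2-fold. Rgs5, a pericyte marker, had 22.7 against 25.3 CPM in the AEG-1ΔMAC section (log2 ratio -0.16, -0.59 to 0.25) and 50.8 against 31.4 CPM in the AEG-1fl/fl section (0.70, 0.41 to 0.97).

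Elastic fibre genes were higher in vessel wall spots of both sections. Of 15 measured genes, 9 were at least 2-fold higher in each section, the same 9 genes, with median log2 ratios of 1.27 and 1.11. Eln, tropoelastin (chromosome 5, 134702593 to 134747323, minus strand), had 121 UMIs in 46 AEG-1ΔMAC vessel wall spots (53.9 against 5.39 CPM, log2 ratio 3.32, 2.99 to 3.65) and 46 UMIs in 27 AEG-1fl/fl vessel wall spots (20.3 against 6.69 CPM, 1.60, 1.12 to 2.06). The fibulins, which tie elastin to the microfibril, followed: Fbln1 was at 4.05 and 2.95 on 30 and 10 UMIs, Fbln5 at 2.29 and 1.11, and Fbln2 at 2.80 and 1.06. Loxl1, which crosslinks elastin, was at 2.71 and 1.77 on 23 and 7 UMIs, and Fbn1, the microfibril protein fibrillin 1, at 1.15 and 1.51. Emilin1 and Ltbp4, also of the elastic fibre, remained below 2-fold (0.38 and 0.23; 0.84 and 0.62).

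Fibrillar collagens and proteoglycans were higher mainly in the AEG-1ΔMAC section, with 14 of 23 measured genes at least 2-fold higher there, 6 in the AEG-1fl/fl section and 5 in both, and median log2 ratios of 1.93 and 0.74. Col3a1 (chromosome 1, 45311538 to 45349706, plus strand) ranged over AEG-1ΔMAC vessel wall spots from 0 over a median of 112 to 3809 CPM, and over AEG-1fl/fl spots from 0 over 98.6 to 1187. Its sums were 197.7 against 40.6 CPM (log2 ratio 2.28, 2.13 to 2.44) and 131.7 against 68.2 CPM (0.95, 0.77 to 1.12). Col1a1 (chromosome 11, 94936224 to 94953042, plus strand) had 88.6 against 9.69 CPM (3.19, 2.94 to 3.44) and 37.6 against 15.8 CPM (1.25, 0.91 to 1.58), and Col1a2 98.9 against 17.3 CPM and 48.6 against 23.3 CPM. Both type I collagen chains were thus lower in the other spots of the AEG-1ΔMAC section than in those of the AEG-1fl/fl section, and higher in its vessel wall spots. The small proteoglycan Bgn was at log2 ratios of 1.0 and 0.54 and Dcn, which stellate cells make throughout the lobule, at 0.52 and 0.06. Basement membrane genes were closer to the background, with 4 and 3 of 14 past 2-fold.

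Fibroblasts of the portal tract have markers of their own, and 18 of the 23 listed reached 1 CPM. Of these, 13 were at least 2-fold higher in the AEG-1ΔMAC section, 11 in the AEG-1fl/fl section and 9 in both, with median log2 ratios of 1.99 and 1.19; Eln, Fbln2 and Mfap4 were also on the elastic fibre list. Dpt, dermatopontin (chromosome 1, 164796644 to 164824266, plus strand), was found in 51 of 102 AEG-1ΔMAC spots with at most 11 UMIs in 1 spot, and in 30 of 121 AEG-1fl/fl spots with at most 4. Its levels were 65.5 against 6.98 CPM (3.23, 2.93 to 3.52) and 21.2 against 4.22 CPM (2.33, 1.84 to 2.79). Gsn, the actin-severing protein gelsolin (chromosome 2, 35256380 to 35307892, plus strand), had 78.4 against 7.76 CPM (3.34, 3.06 to 3.61) and 16.4 against 3.49 CPM (2.23, 1.67 to 2.75). C7, complement component 7, was at 3.44 and 2.74, and Clec3b, tetranectin, at 4.03 and 3.84 on 33 and 5 UMIs. Among genes past 20 CPM, score genes left out, Dpt and Gsn had the highest ratio in the less enriched of the 2 sections. Both passed this minimum only through their vessel wall sums, as neither reached 20 CPM in the other spots of either section. The filter thus had a part in this ranking. Wall and fibroblast genes were not particular to the vessel wall spots: 15 and 13 of the 15 elastic fibre genes, 20 and 20 of the 23 collagens and proteoglycans and 17 and 16 of the 18 portal fibroblast genes had a higher level in the bile duct spots of the AEG-1ΔMAC and the AEG-1fl/fl section. Eln was at 82.9 and 59.3 CPM there, Dpt at 117.7 and 56.8, Gsn at 123 and 46.2 and Col1a1 at 120.8 and 97.2. Stellate cell genes, by contrast, had median log2 ratios of -0.01 and 0.06 over 18 genes, of which 2 and 1 passed 2-fold.

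Among the remaining genes with the highest ratios were enzymes of the matrix and their inhibitors. Timp3, an inhibitor of metalloproteinases held in the matrix, had nearly equal levels in both sections, 44.1 against 19.8 CPM and 48.6 against 20.6 CPM (1.16, 0.84 to 1.46; 1.24, 0.94 to 1.52). Prss23, a serine protease, had 47.7 against 6.29 CPM (2.92, 2.58 to 3.25) and 23.9 against 10.2 CPM (1.22, 0.79 to 1.63). Lhfp was at 0.78 (0.40 to 1.14) and 0.75 (0.39 to 1.09). The matrix remodelling list had 10 and 2 of 16 genes past 2-fold. Of 22 genes of TGF-beta and BMP signalling, 6 and 4 passed, among them Ccn2, a matricellular target of the pathway (2.12 and 1.38), and Tgfb3 (2.43 and 2.29 on 13 and 11 UMIs). The inhibitors of mineralization other than Mgp showed no such shift, with median log2 ratios of -0.07 and 0.00 over 10 genes and 1 and 0 genes past 2-fold.

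Endothelial markers were compared by vessel type. Of 14 arterial genes, 7 and 5 were at least 2-fold higher and 4 in both (median 0.75 and 0.64), with Gja5, connexin 40 of the arterial lining, at 4.57 and 2.67 on 30 and 19 UMIs. Of 17 vein genes, 5 and 2 passed (median 0.38 and 0.21). The summed UMIs of the lists ordered them the other way, with the arterial sum at a log2 ratio of 0.07 (0.02 to 0.12) and 0.15 (0.10 to 0.20) and the vein sum at 0.71 (0.61 to 0.80) and 0.23 (0.12 to 0.33). In the 15 AEG-1ΔMAC spots with 10 or more score UMIs the vein sum was at 1.79 and the arterial sum at 0.21. Vwf, von Willebrand factor (chromosome 6, 125546774 to 125686679, plus strand), had 111 UMIs in 45 AEG-1ΔMAC vessel wall spots (49.4 against 9.95 CPM, 2.31, 2.0 to 2.62) and 35 UMIs in 23 AEG-1fl/fl spots (15.5 against 9.25 CPM, 0.74, 0.20 to 1.24). Mmrn1, multimerin 1, was at 3.55 and 3.63. Sinusoidal genes were near the background (median -0.12 and 0.01), with 0 of 13 at least 2-fold higher in either section and 0 and 1 at least 2-fold lower. Their sums were at -0.12 (-0.18 to -0.06) and -0.04 (-0.10 to 0.03). Stab2, the sinusoidal scavenger receptor stabilin 2, was slightly lower (58.8 against 65.9 CPM and 52.2 against 65.2 CPM).

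Markers of other cells were counted in the same spots. Of 18 measured cholangiocyte genes, 5 and 2 were past 2-fold (median 0.18 and 0.08) although the spots richest in 4 of these genes had been dropped. Kupffer cell and macrophage genes had medians of -0.15 and 0.24, and the mesothelium list, which marks the liver surface, had 2 of 10 genes past 1 CPM. The summed mesothelium list was higher in vessel wall spots, at log2 ratios of 2.36 (1.61 to 3.06) and 0.74 (0.12 to 1.31). These sums rested on 22 and 27 UMIs, of which 17 and 12 were of Gpm6a. Genes of T and B cells had 4 and 1 of 13 past 2-fold, and nerve and Schwann cell genes 2 and 1 of 5. The class II major histocompatibility complex (MHC), which displays antigen on dendritic cells, B cells and macrophages, was higher in both sections. H2-Eb1 (chromosome 17, 34305867 to 34316674, plus strand) had 126.5 against 56.3 CPM (1.17, 0.98 to 1.35) and 50.4 against 22.8 CPM (1.14, 0.85 to 1.42). H2-Ab1 had 173.2 against 92.1 CPM and 71.2 against 37.9 CPM, and the 8 genes together had medians of 0.94 and 0.53, with 3 and 1 past 2-fold.

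**Figure D2:**
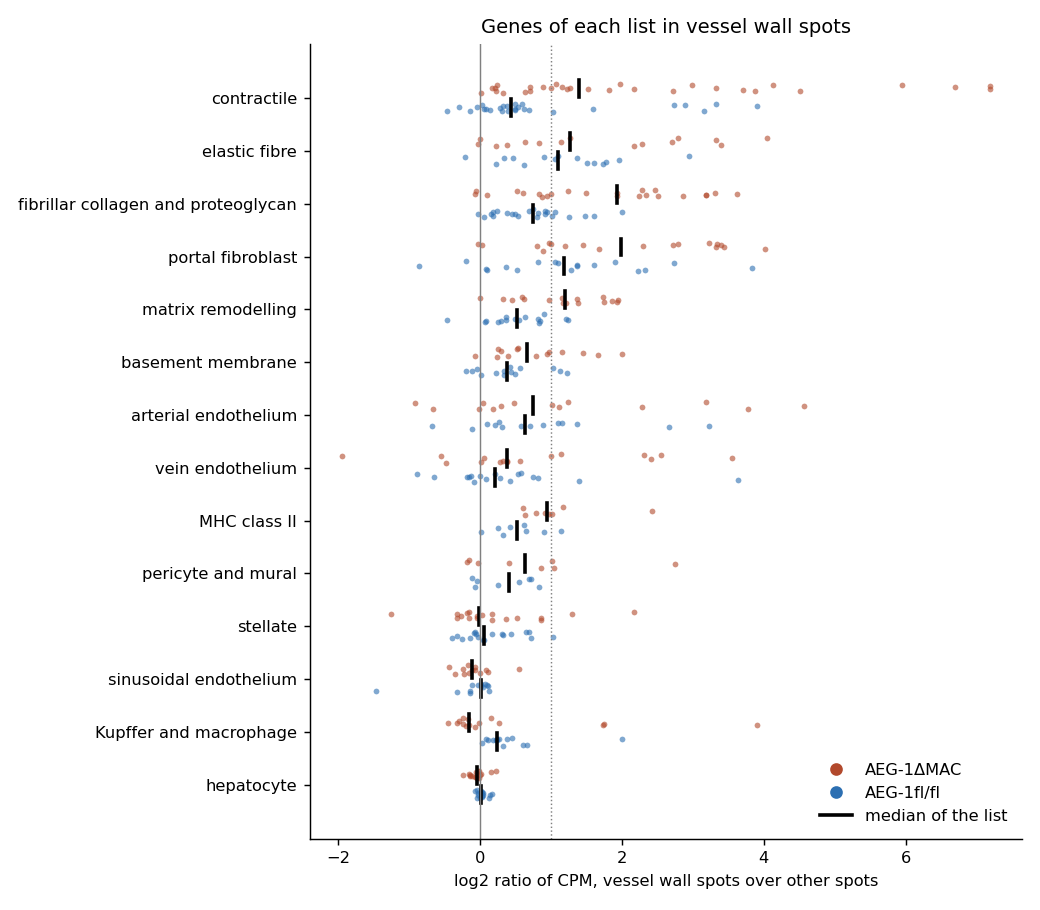
Log2 ratio of CPM, vessel wall over other spots (horizontal axis), for each measured gene (points) of 14 gene lists, with the list's median, by section (colour). Contractile, elastic fibre, collagen and portal fibroblast medians lay to the right of 0 and further in AEG-1ΔMAC, while stellate, sinusoidal and hepatocyte medians lay within 0.12 of 0; 5 values with a sum of 0 are not drawn.

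The genes lowest in vessel wall spots differed little from other spots. In the section with the weaker decrease they were below other spots by 0.39 to 0.57 on the log2 scale. Csrp3, a LIM protein, had 44.1 against 65.4 CPM and 27.0 against 43.1 CPM. Akr1c6, a hydroxysteroid dehydrogenase, had 193.7 against 276.9 CPM and 133.1 against 187.2 CPM. Csad, an enzyme of taurine synthesis, had 151 against 216.2 CPM and 255.5 against 349 CPM. Cyp7a1, the rate-limiting enzyme of bile acid synthesis, had 70.8 against 95.9 CPM and 38.5 against 51.0 CPM.

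Spots differ in depth, and the share of spots with a UMI depends on it, so each spot was also thinned to 10000 UMIs. At this depth Dpt was present in 37% of AEG-1ΔMAC vessel wall spots (50% unthinned) and 5.71% of other spots (11.2%), and in 15.7% (24.8%) and 4.10% (7.5%) in the AEG-1fl/fl section. Col3a1 was present in 58% against 30.2% and in 64.3% against 45.5%. Vwf was present in 34% against 7.76% of AEG-1ΔMAC spots, but in 9.57% (4.87 to 16.5%) against 7.15% (6.11 to 8.31%) of AEG-1fl/fl spots, where the intervals overlapped. Clec4f, a Kupffer cell receptor, was present in 76% against 81.2% and 80% against 81.1%. Thinning left out 2 and 6 vessel wall spots and 23 and 96 other spots that were shallower.

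The enrichment grew with the number of score UMIs. The summed contractile genes, which the score did not use, were higher than in other spots by a log2 ratio of 0.17 in the 44 AEG-1ΔMAC spots with 1 to 2 score UMIs, 0.46 in the 29 with 3 to 5, 0.78 in the 14 with 6 to 9 and 2.38 in the 15 with 10 or more. In the AEG-1fl/fl section the same steps gave 0.08 in 63 spots, 0.17 in 52, 0.72 in 4 and 1.86 in 2. At the same number of score UMIs the sections lay closer together than over all their vessel wall spots. Elastic fibre genes went over the same steps from 0.57 to 3.08 and from 0.29 to 2.68, collagens and proteoglycans from 0.18 to 1.16 and from 0.11 to 1.05, and MHC class II from 0.31 to 2.20 and from 0.33 to 3.14. Hepatocyte genes were between -0.15 and 0.10 at the steps of both sections. Single spots varied widely. The contractile share of an AEG-1ΔMAC vessel wall spot was between 171.9 and 13331 CPM with a median of 763 (554 in other spots), and that of an AEG-1fl/fl spot reached 2429 with a median of 573 (534). Of the vessel wall spots, 39 of 102 and 17 of 121 were above the 95th percentile of other spots in contractile share. Spearman's rho between the score and the contractile share was 0.67 over 102 and 0.39 over 121 spots, as a description, since both have the spot's UMIs as denominator and the spots share a library.

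**Figure D3:**
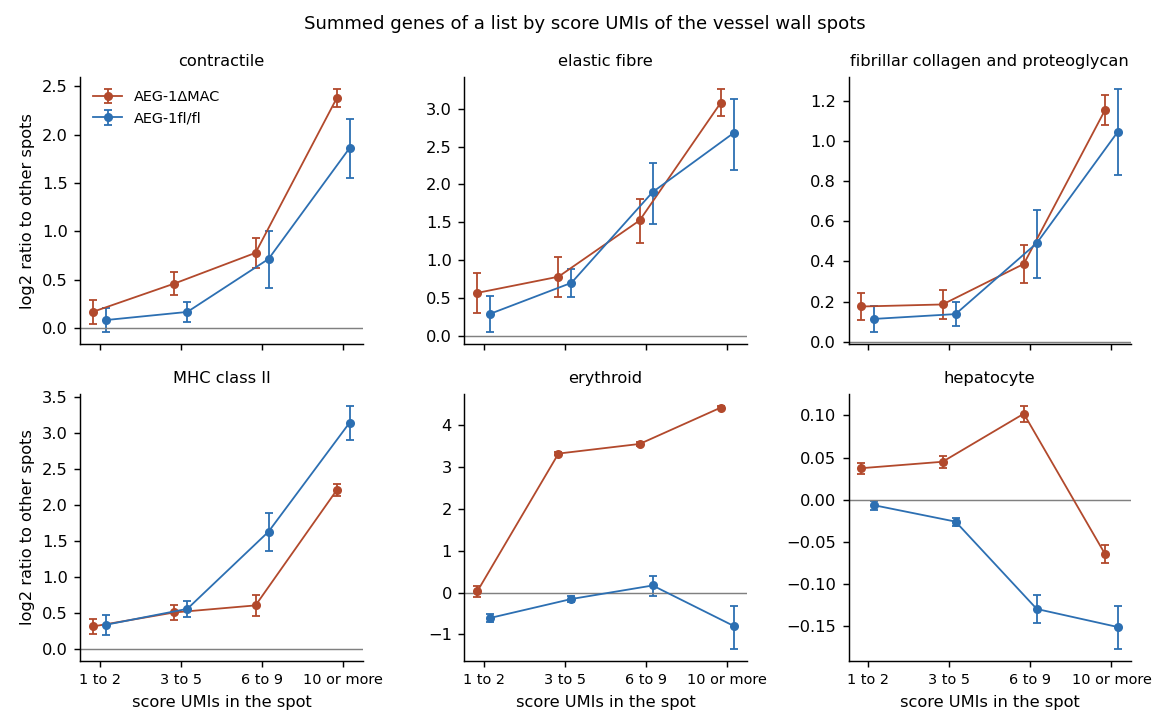
Log2 ratio of summed CPM to other spots (vertical axis, with 95% intervals of counting error) for gene lists, by the number of score UMIs in the spot (horizontal axis) and section (colour). The wall lists climbed with the score in both sections and the hepatocyte list stayed near 0; the 2 highest steps of AEG-1fl/fl held 4 and 2 spots.

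The place of the spots along the lobule was read from hepatocyte genes that the rule did not use. Hepatocytes near the portal tract (zone 1) and near the central vein (zone 3) express different enzymes. An index of 3 zone 3 genes (Cyp2e1, Cyp1a2, Oat) less 6 zone 1 genes (Pck1, Hal, Gls2, Cyp2f2, Hsd17b13, Arg1) was used to rank the spots of each section, bile duct spots left out, and to cut them into 3 groups of equal size. Vessel wall spots lay in the zone 1 group in 58 of 102 cases (56.9%, 46.7 to 66.6%) in the AEG-1ΔMAC section and 63 of 121 (52.1%, 42.8 to 61.2%) in the AEG-1fl/fl section. They lay in the zone 3 group in 18 (17.6%, 10.8 to 26.4%) and 34 (28.1%, 20.3 to 37.0%). Those with 6 or more score UMIs were in the zone 1 group in 21 of 29 and 5 of 6 cases, and in the zone 3 group in 0 of 29 (exact upper limit 11.9%) and 1 of 6. Spots chosen by the rule thus lay at both ends of the lobule, with more of them at the portal end. Of the 18 and 34 in the zone 3 group, 0 and 1 held 6 or more score UMIs. Whether smooth muscle lay at that end is therefore not settled by these spots.

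Within the vessel wall spots, the vessel genes differed between these ends. Vwf was lower in the zone 1 group than in the zone 3 group (log2 ratio -1.35, -2.03 to -0.65, and -1.69, -2.79 to -0.64), as was Rspo3, the Wnt signal amplifier made by the central vein endothelium, with 9 against 16 UMIs (-2.70) and 3 against 32 UMIs (-4.59). Both genes had the same direction in other spots (Vwf -1.44 and -1.94, Rspo3 -1.93 and -1.99). The summed contractile genes were higher in the zone 1 group, by 0.57 (0.38 to 0.76) in the AEG-1ΔMAC section and 0.18 (0.00 to 0.37) in the AEG-1fl/fl section, while other spots had -0.13 and -0.14. MHC class II was higher there by 0.82 (0.65 to 1.0) and 1.01 (0.79 to 1.24). Eln was higher by 2.30 in the AEG-1ΔMAC section (72 against 4 UMIs) and at -0.33 in the AEG-1fl/fl section (27 against 15 UMIs, -1.29 to 0.69).

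**Figure D4:**
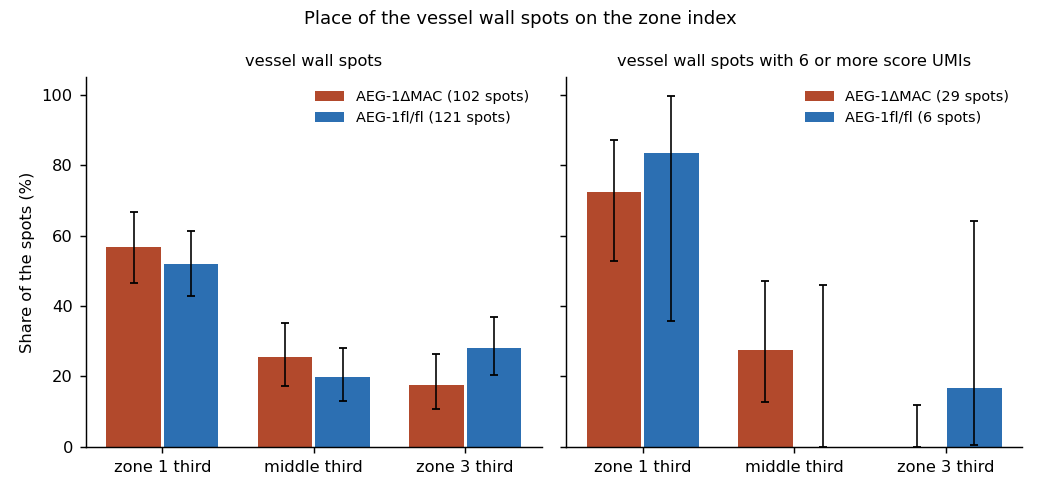
Position of vessel wall spots along the lobule: percentage of spots in the zone 1, middle and zone 3 groups of the index, with 95% binomial intervals, by section. In each section over 52% of vessel wall spots lay in the zone 1 group, and fewer than 29% in the zone 3 group.

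The comparison between genotypes asked how the vessel wall spots of the AEG-1ΔMAC section differed from those of the AEG-1fl/fl section. The levels of Mtdh itself in vessel wall spots were 73.9 CPM (AEG-1ΔMAC) and 56.1 CPM (AEG-1fl/fl). Their log2 ratio was 0.40 (0.05 to 0.74), beside 0.12 in other spots. As the deletion is confined to myeloid cells, which gave a small part of the RNA (the Kupffer and macrophage list summed to 961.9 and 1112 CPM in vessel wall spots, with Lyz2 at 2 UMIs in each section), this level does not check it. Of the 4719 genes, 87 (1.84%) were at least 2-fold higher in AEG-1ΔMAC vessel wall spots and 28 (0.593%) at least 2-fold lower. With the minimum at 1 CPM, 999 (8.85%) were higher and 383 (3.39%) lower. The median of all 4719 genes was 0.14, and relative to it 60 were higher and 37 lower. The scaling moved this split and changed the number of genes counted. Scaled by TMM factors, 60 of 4717 genes were higher and 35 lower (median 0.02). Scaled by a total that leaves out the 50 most abundant genes, 117 of 6829 genes were higher and 76 lower (median 0.01). Many of these genes differed outside the vessel wall as well. In other spots, 59 genes passed the 2-fold limit upward and 27 downward between the genotypes. Of the 87 and the 28 genes, 48 and 19 were among them, in the same direction. Over all genes past 1 CPM, the median log2 ratio between genotypes was 0.16 in vessel wall spots and 0.12 in other spots.

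Among the genes that differed most in vessel wall spots, Gadd45g, a stress-induced growth regulator, ranged over AEG-1ΔMAC vessel wall spots up to 479 CPM with a median of 197, and over AEG-1fl/fl spots up to 142 with a median of 0. Its sums were 199 and 11.1 CPM, a log2 ratio of 4.17 (3.59 to 4.81) in vessel wall spots and 4.48 in other spots. Alas1, the first enzyme of haem synthesis, had 316 and 18.1 CPM (4.12, 3.67 to 4.61; 3.85 in other spots). The transcription factors Foxq1 and Onecut1 were at 3.74 and 3.06 (2.86 and 3.71), and Phlda1 at 3.0 (3.11). Mup12, of the major urinary proteins, whose members are near-identical so that probes may not separate them, was at 2.35 (2.14). Of the genes lower in the AEG-1ΔMAC section, Tff3, a trefoil peptide, had 24.9 and 315 CPM (-3.66, -4.08 to -3.26; -5.53 in other spots). Scd1, the stearoyl-CoA desaturase that makes monounsaturated fat, had 680 and 2070 CPM (-1.61, -1.69 to -1.52; -1.64). The fatty acid carrier Fabp5, lipoprotein lipase Lpl, Depp1 and the ligand Efna1 were at -1.85, -1.74, -1.85 and -1.66, and the fatty acid hydroxylase Cyp4a14 at -1.35.

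**Figure D5:**
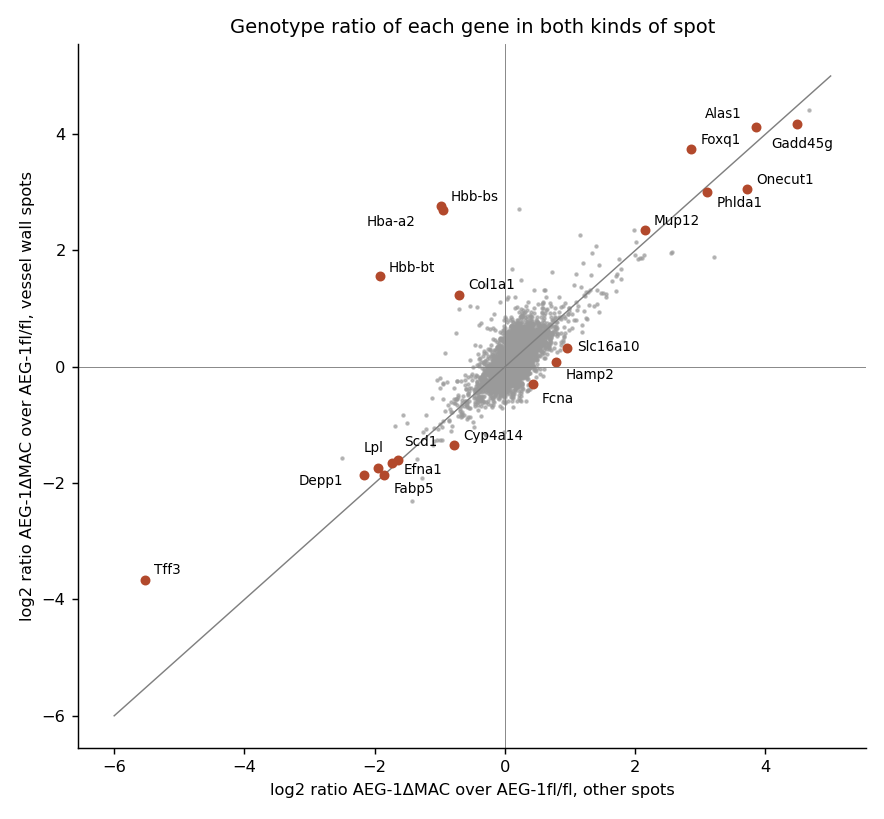
Log2 ratio of AEG-1ΔMAC over AEG-1fl/fl in vessel wall spots (vertical axis) against that in other spots (horizontal axis) for 4719 genes, named genes in red, with the line of equal ratios. Most named genes lay near the line (Gadd45g 4.17 and 4.48), while Hbb-bs, Hba-a2, Hbb-bt, Col1a1 and Tff3 lay above it.

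Wall genes were compared over all vessel wall spots and over those with a like number of score UMIs. Of the 30 contractile genes, 13 were at least 2-fold higher in AEG-1ΔMAC vessel wall spots and none lower (0 of 30), with a median log2 ratio of 0.80, against -0.08 in other spots. Tpm2 was at 2.72 (2.08 to 3.42) in vessel wall spots and 0.22 in other spots. Restricted to spots with 2 to 5 score UMIs, 67 and 109 spots whose score summed to 125 and 144 CPM, the contractile median was 0.056, beside 0.13 for all genes past 1 CPM in the same spots, with 6 contractile genes higher and 3 lower, and Tpm2 1.77 (0.80 to 2.82). Of all 11291 genes past 1 CPM, 893 were at least 2-fold higher and 702 lower in these restricted spots. Collagens and proteoglycans had a median of 0.59 over all vessel wall spots (8 higher and 2 lower of 23) and 0.14 in the restricted spots (4 and 3), beside -0.49 in other spots. Col1a1 was at 1.24 (0.86 to 1.62) over all and 0.20 (-0.32 to 0.72) in the restricted spots, and Eln at 1.41 (0.91 to 1.93) and 0.24 (-0.53 to 0.99). Portal fibroblast genes had a median of 1.42 (11 of 18 higher) in all vessel wall spots and 0.90 (7 of 18) in the restricted ones, beside a median of 0.46 in other spots. Gsn was at 2.26 over all, 1.79 (1.11 to 2.5) in the restricted spots and 1.15 in other spots, whereas Timp3 was at -0.14 and -0.30 with intervals that spanned 0.

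MHC class II genes were higher in the AEG-1ΔMAC section in and out of the wall. In vessel wall spots 7 of 8 were at least 2-fold higher (median 1.31), and in other spots the median was 0.99. H2-Eb1 had a log2 ratio of 1.33 (1.01 to 1.65) in vessel wall spots and 1.30 in other spots, and H2-Ab1 1.28 (1.01 to 1.56) and 1.28. In spots with 2 to 5 score UMIs the values were 0.98 (0.57 to 1.39) for H2-Eb1 and 0.99 (0.64 to 1.33) for H2-Ab1. Core clock genes had 9 of 16 at least 2-fold higher and 1 lower in vessel wall spots, with medians of 1.16 there and 1.26 in other spots. The immediate early genes had 4 of 16 higher and 1 lower in vessel wall spots, with medians of 0.77 and 0.48. Over all genes past 1 CPM, 8.85% were higher and 3.39% lower in vessel wall spots, and the median in other spots was 0.12.

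The difference between the ratio in vessel wall spots and that in other spots sets the wall against the rest of the section. Over genes that averaged 50 CPM or more in vessel wall spots, score genes left out, it was largest for the haemoglobin chains of red blood cells: 3.74 (3.65 to 3.83) for Hbb-bs, 3.64 (3.51 to 3.78) for Hba-a2 and 3.48 (3.13 to 3.84) for Hbb-bt, followed by 1.94 (1.53 to 2.37) for Col1a1. Below that level, Tpm2 was at 2.5 and Cnn1, on 24 and 3 UMIs, at 3.87. The wall genes among these are to be read beside the unequal score UMIs of the sections. In spots with 2 to 5 score UMIs the genotype ratio itself was 0.20 (-0.32 to 0.72) for Col1a1, with an interval that spanned 0. It was 1.77 (0.80 to 2.82) for Tpm2 and 3.05 (0.008 to 8.57) for Cnn1. Probes of the near-identical globin genes may not separate them. Hbb-bs had 3602 CPM in vessel wall spots and 352 CPM in other spots of the AEG-1ΔMAC section, against 530 and 694 CPM in the AEG-1fl/fl section. Over single vessel wall spots it ranged from 0 over a median of 500 to 73582 CPM in the AEG-1ΔMAC section, and its median was 361 and its highest value 3840 in the AEG-1fl/fl section. A few spots carried the sum, as 6 of the 102 AEG-1ΔMAC spots held at least 50% of the Hbb-bs UMIs. Of the AEG-1ΔMAC vessel wall spots, 15 (14.7%) were above the 99th percentile of other spots in Hbb-bs, and 0 of 121 AEG-1fl/fl vessel wall spots were. Over the 4 steps of score UMIs, log2 ratios to other spots of the summed erythroid genes were 0.03, 3.33, 3.56 and 4.43 in the AEG-1ΔMAC section. They were -0.60, -0.15, 0.17 and -0.80 in the AEG-1fl/fl section. Over single AEG-1ΔMAC vessel wall spots, the erythroid share had a Spearman's rho of 0.65 but a Pearson's r of 0.09 with the score. The AEG-1ΔMAC spot with the highest score held 33 erythroid UMIs, and the spot at rank 10 held 1026. In spots with 2 to 5 score UMIs Hbb-bs was still at 2.12 (2.02 to 2.22) between the genotypes. Bile duct spots had 2130 and 520 CPM of Hbb-bs.

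At the other end, the ratio in vessel wall spots was lower than in other spots for Fcna, a ficolin of Kupffer cells (-0.73, -1.0 to -0.46), Hamp2, a hepcidin of hepatocytes (-0.72, -1.11 to -0.32), Onecut1 (-0.66, -1.22 to -0.05) and Slc16a10, a carrier of aromatic amino acids (-0.62, -0.92 to -0.31). Clec4f, of the same Kupffer cells as Fcna, was at -0.39 (-0.59 to -0.18). All 5 were small beside the haemoglobin values.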

How the data were processed

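Liver sections were profiled on 10x Genomics Visium for formalin-fixed tissue, in which probe pairs on transcripts are ligated and captured on barcoded spots, 1 section per genotype. Per the labels, Space Ranger 2.0.1 and Seurat 4.3.0 were used and reads were assigned to mm10. The authors deposited raw UMI counts of 19465 genes per spot, with no normalization, and these counts were used as deposited. For repeated gene symbols the first entry was taken.

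Spots with at most 50000 UMIs and 100 to 7000 genes were kept, the top 5% by bile duct share were dropped, and the top 5% by score were taken. UMIs were summed over spots and divided by the summed total (CPM). As each genotype had 1 library and spots are not replicates, no test was run. Ratios carry exact conditional binomial and ratios of ratios exact conditional 95% intervals, which cover counting error. A minimum of 20 CPM over the 4 sums was set for counts of genes and 1 CPM for lists. Genes were named by the highest and lowest ratios (12 and 6 between kinds of spot, 8 each way between genotypes and 4 each way for the ratio of ratios), and as members of 37 gene lists. A gene that met this rule is not reported here. Members, rule and lists were chosen with earlier results of these data known. Genes of the lists that the table does not hold were not analysed here. Coordinates came from GENCODE M21 on GRCm38, matched by Ensembl identifier, and promoters from RefSeq. Python 3.11.15 with numpy 2.4.6, scipy 1.17.1 and pandas 2.3.3 was used, and edgeR 4.0.16 for TMM factors. The scripts were tested on simulated data. Alternatives were other shares of spots (10% and 2.5%), a score without Mgp, no bile duct drop, no limits on spots, the tenth of spots with the highest score left out, TMM factors, a total without the 50 most abundant genes, mean spot CPM, thinning to 10000 UMIs, other minima, a 1.5-fold limit and other zone genes. Spots with 2 to 5 score UMIs were added as an alternative after seeing the data.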

Additional observations from a re-analysis of the deposited data

Results flagged for a closer look

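Several genes lay on opposite sides in the 2 sections, with the log2 ratio of vessel wall over other spots above 0 in 1 section and below 0 in the other and neither interval of counting error reaching 0. These were Hbb-bs (3.35 for AEG-1ΔMAC, -0.39 for AEG-1fl/fl), Hba-a2 (3.36 and -0.29), Hbb-bt (3.14 and -0.34) and Tff3 (1.68 and -0.19), and in the reverse direction Fcna (-0.27 and 0.46) and Slc16a10 (-0.37 and 0.24). With 1 section per genotype, the difference between the genotypes was not tested.

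The 3 AEG-1fl/fl spots outside the limits on UMIs and genes held 7 UMIs of Acta2, Tagln, Myh11 and Mgp (45.5 per 1000000 UMIs), and the 9 such AEG-1ΔMAC spots held 1.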

How the results depend on the processing

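No paired analysis was possible because each genotype had 1 library. Of 266 recomputed summary values, 206 stayed within the interval of the main result or 1.5 times the count, and 60 moved. For list medians and median depth this interval was that of the median over genes or spots, and not of counting error. No list median changed direction, whereas counts, shares and depths could not change direction. The named genes had the same sign in all 660 recomputed values. Counts of genes at least 2-fold higher in vessel wall spots of both sections, of the AEG-1ΔMAC section and of the AEG-1fl/fl section, which were 9, 32 and 10, were 1, 16 and 1 with the top 10% of spots, 22, 72 and 27 with the top 2.5%, 57, 109 and 62 without the bile duct drop, 1, 18 and 2 without the tenth of spots with the highest score, 18, 71 and 19 with a total without the 50 most abundant genes, 1, 10 and 1 at 50 CPM, 214, 687 and 353 at 1 CPM (12 lower in both), 24, 80 and 33 at 1.5-fold, and 1, 10 and 3 in spots with 2 to 5 score UMIs. Between genotypes, the 87 higher genes became 56 (top 10%), 156 (top 2.5%), 137 (thinned), 40 (50 CPM), 999 (1 CPM) and 382 (1.5-fold), and the 28 lower genes 76 (50 most abundant genes out), 14 (50 CPM), 383 (1 CPM) and 99 (1.5-fold). List medians in AEG-1fl/fl rose with the top 2.5% to 0.73 (contractile), 1.91 (elastic fibre) and 1.94 (portal fibroblast), and without the bile duct drop to 1.06, 2.24 and 2.45, with collagens at 1.54. The AEG-1ΔMAC collagen median was 2.62 and 2.82 in these settings. In spots with 2 to 5 score UMIs, the AEG-1ΔMAC medians were 0.47 (contractile) and 0.83 (collagen) and the genotype medians 0.056 and 0.14. Without the bile duct drop, 69.2% of AEG-1ΔMAC spots were in the zone 1 group and 10.3% in the zone 3 group, and 18.9% of AEG-1fl/fl spots in the zone 3 group. Median depth was 17947 UMIs and 3898 genes (AEG-1ΔMAC, top 10%), 4440 genes (AEG-1ΔMAC) and 16064 UMIs (AEG-1fl/fl) with the top 2.5%, and 4507 genes and 16211 UMIs without the drop. The cause of these shifts was not tested, except that a lower minimum tests more genes and a lower fold calls more. The setting without the 50 most abundant genes also counted over 6829 genes rather than 4719. Depth limits the vessel wall sums to about 2.25 molecules per CPM.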
